A study of Homo sapiens with 6 samples.

Results

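The 42 genes described here encode the kinetochore, the inner centromere and the spindle assembly checkpoint. They were listed by symbol for their role in chromosome segregation, not by any measured value, though earlier results of these data were known. All 42 were found among the 16376 genes of the deposited table, and all 42 passed the filter on low values that left 12143 genes for testing. RNA was sequenced from the human osteosarcoma cell line HOS, derived from a bone tumour, in 6 libraries. Cells of 3 libraries had received Agrimol B, a plant polyphenol known from agrimony, for 24 h. Cells of the other 3 libraries were controls, whose labels give the treatment as "None". Both groups carry the genotype label WT, and both rest on the same single cell line. Neither the dose nor the solvent is named in the labels, nor whether the controls received that solvent. Nothing in the labels says that replicates came from separate cultures, so the p-values below weigh a difference against library-to-library spread that may be technical only. Values are FPKM, fragments scaled to the length of the gene's transcripts and to the sequenced fragments of the library, so levels of different genes can be set side by side. Differences are in log2(FPKM + 1), Agrimol B minus control, and were tested with limma. A gene is said to have risen or fallen where its p-value, adjusted by Benjamini-Hochberg over all 12143 genes, was under 0.05. A fold divides the mean FPKM of 1 group by that of the other, and library values are given in the order of replicates 1, 2 and 3.

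The kinetochore is a protein assembly built on each centromere in every division, and it ties the chromosome to spindle microtubules. Its base is chromatin holding the histone H3 variant CENP-A, on which the constitutive centromere-associated network (CCAN) recruits an outer layer that grips microtubules. Kinetochores without attachment catalyse a checkpoint signal that holds back anaphase, and the chromosomal passenger complex releases faulty attachments. Transcripts of many of these genes are known to peak late in the cell cycle, so their level in a bulk sample also depends on how many cells are dividing.

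After 24 h of Agrimol B, most of the kinetochore and checkpoint genes had lower transcript levels, while the checkpoint gene MAD1L1 was more than doubled. Of the 42 genes, 23 fell, 3 rose (MAD1L1, DSN1 and CENPP) and 16 did not pass the test. Over all genes tested, 21.4% fell and 30.6% rose, beside 54.8% of these genes that fell. The median difference over the 42 genes was -0.34, beside 0.07 over all genes tested. In 14 of the 42 genes the fall was at least 0.5 (log2), a size of fall that 9.18% of all tested genes reached. The 3 Agrimol B values lay under all 3 control values in 24 of the genes, against 26.0% of tested genes, and over them in 4, against 36.2%. Summed over the 42 genes, the level was 1177, 1206 and 1191 FPKM in the control libraries and 967, 943 and 935 FPKM in the Agrimol B libraries, with no overlap. A smaller share of dividing cells and less RNA per cell cannot be told apart in bulk RNA.

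**Figure D1:**
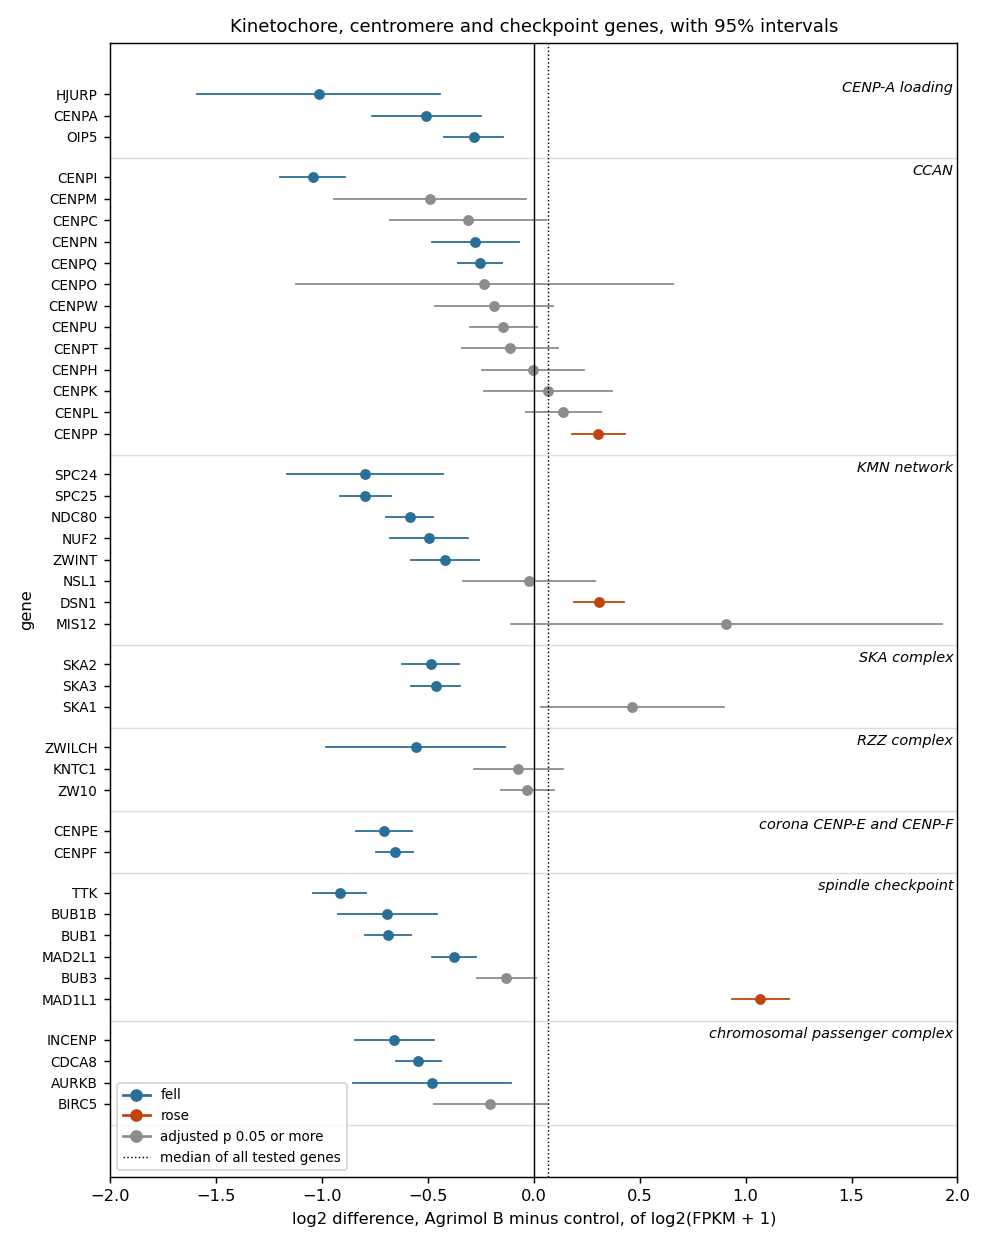
Difference in log2(FPKM + 1), Agrimol B minus control, for each of the 42 genes, grouped by complex, with points for the estimate and lines for the 95% interval (3 libraries a group). Blue genes fell, orange genes rose and grey genes did not pass; TTK, CENPI and HJURP lie far left, MAD1L1 far right, and the CCAN genes, with a median of -0.19, lie on both sides of the dotted median of all tested genes (0.07).

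The falls were spread unevenly over the layers of the kinetochore. All 3 listed genes of CENP-A loading fell (median -0.51), as did all 4 genes of the microtubule-binding NDC80 complex (median -0.69) and both corona genes CENPE and CENPF (median -0.68). The NDC80 complex is part of the KNL1-MIS12-NDC80 network. Of the 8 listed genes of that network, 5 fell, 1 rose and 2 did not pass (median -0.46). None of its 3 listed MIS12 complex genes fell (median 0.31). In the RZZ complex 1 of 3 genes fell (median -0.073). Medians of the SKA complex, the checkpoint genes and the chromosomal passenger complex were -0.46, -0.53 and -0.51. In the CCAN, 3 of the 13 listed genes (23.1%, beside 21.4% of all tested genes) fell, 1 rose and 9 did not pass. The CCAN median was -0.19, and between -0.21 and -0.064 with a library left out. It was -0.25 with median-ratio scaling and -0.23 with quantile normalization, and 5 of the 13 fell with either. Among the 29 genes outside the CCAN, 20 fell, 2 rose and 7 did not pass (median -0.49). The difference between these groups of genes was not tested, since genes of 1 complex are not replicates.

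Promoters are shown first because many genes of this set are known to share a pair of short elements, the cell cycle genes homology region (CHR) and the CCAAT box, which are classically described in genes expressed late in the cell cycle. RefSeq promoters on GRCh38.p14, each 300 bases long with 250 before and 50 after the start site, were found for 35 of the 42 genes (40 promoters, since some genes have several). BIRC5, BUB3, CENPH, CENPL, CENPM, KNTC1 and TTK had no entry. Both strands were searched for the CHR as TTTGAA or TTCGAA, for the CCAAT box as CCAAT, and for an E2F-like site as TTTCCCGC, TTTCGCGC, TTTGCCGC or TTTGGCGC. The stretches below are the bases before the start site that lie in no annotated GENCODE exon, at most 160 of them, written 5′ to 3′ on the strand of the gene, with matches in capitals; ATTGG and TTCAAA are the same motifs read from the other strand. They show genes that fell and, last, DSN1, which rose.
HJURP: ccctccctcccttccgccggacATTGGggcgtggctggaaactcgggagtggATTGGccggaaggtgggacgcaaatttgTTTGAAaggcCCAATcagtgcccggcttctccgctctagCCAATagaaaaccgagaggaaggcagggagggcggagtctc
ZWINT: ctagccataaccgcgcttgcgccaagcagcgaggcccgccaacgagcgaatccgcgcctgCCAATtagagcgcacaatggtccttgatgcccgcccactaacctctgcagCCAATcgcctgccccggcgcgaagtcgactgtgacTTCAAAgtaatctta
CENPF: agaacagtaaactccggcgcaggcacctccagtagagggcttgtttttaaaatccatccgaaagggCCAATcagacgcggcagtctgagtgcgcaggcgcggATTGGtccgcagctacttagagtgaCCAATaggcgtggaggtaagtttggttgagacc
SPC25: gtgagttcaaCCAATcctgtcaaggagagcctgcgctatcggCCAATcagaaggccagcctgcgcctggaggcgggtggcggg
INCENP: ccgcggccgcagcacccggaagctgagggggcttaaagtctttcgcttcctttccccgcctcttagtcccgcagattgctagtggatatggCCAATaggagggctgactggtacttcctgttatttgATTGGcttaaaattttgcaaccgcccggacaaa
DSN1: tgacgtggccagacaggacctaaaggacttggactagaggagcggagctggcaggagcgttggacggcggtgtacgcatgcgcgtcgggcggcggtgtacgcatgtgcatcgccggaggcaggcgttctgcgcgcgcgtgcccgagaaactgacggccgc
HJURP's stretch held 4 CCAAT boxes and a CHR, ZWINT's held a CHR 31 bases before its start site behind a pair of CCAAT boxes, and CENPF's held 3 CCAAT boxes. The stretch of DSN1 held none of the motifs. Positions of the stretches on GRCh38.p14 were chr2:233854567-233854726 on the minus strand for HJURP, chr10:56361276-56361435 on the minus strand for ZWINT, chr1:214603035-214603194 on the plus strand for CENPF, chr2:168890446-168890528 on the minus strand for SPC25, chr11:62123813-62123972 on the plus strand for INCENP and chr20:36773819-36773978 on the minus strand for DSN1.

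A CHR was present in 21 of the 40 promoters (52.5%), against 11.6% of the 14281 promoters of all tested genes and 16.4% of all 35116 promoters. Promoters of genes that fell held one in 16 of 24 cases (66.7%) and those of genes that did not pass in 5 of 11 (45.5%). None of the 5 promoters of MAD1L1, DSN1 and CENPP held these letters. The CCAAT box was in 65.0% of the promoters, against 34.5% of those of tested genes, and CHR and CCAAT box stood together in 37.5%, against 4.66%. In CDCA8, a subunit of the chromosomal passenger complex, the CHR overlaps a CCAAT box read on the other strand. The E2F-like site was found in 12.5%, against 4.88%. By call it was in 2 of 24 promoters of genes that fell (8.33%) and in 3 of 11 of genes that did not pass (27.3%). Promoters of the same gene are counted separately in all these shares. The E2F-like matches among genes that did not pass lay in CENPU and in both promoters of MIS12. Both promoters of ZWINT likewise count among those with a CHR. CENPI, among the deepest falls, held none of the motifs in its promoter, and neither did CENPE. These matches describe letters in a window, and nothing about a factor was measured.

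**Figure D2:**
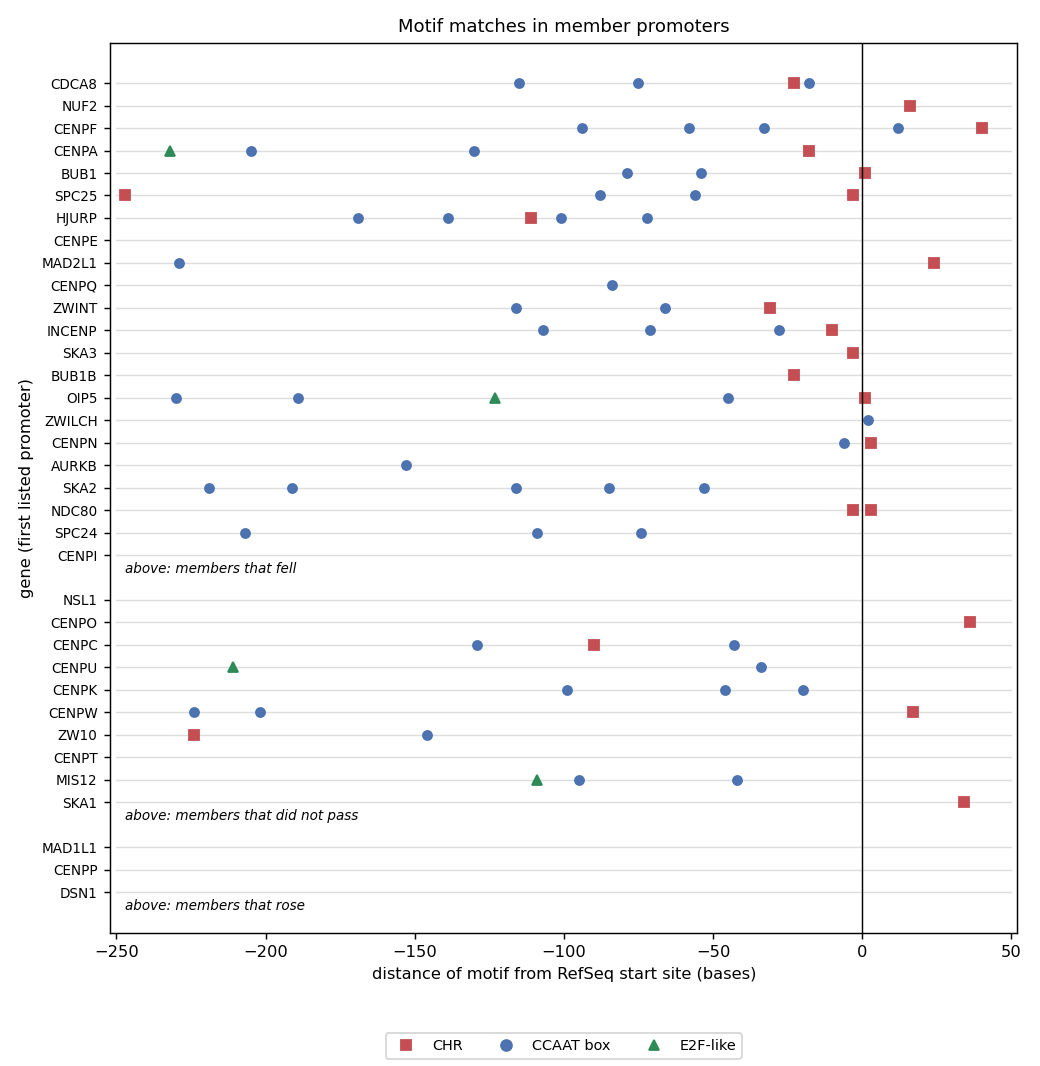
Distance of each motif match from the RefSeq start site, in bases, for the first listed promoter of each of the 35 genes that have one, with squares for the CHR, circles for the CCAAT box and triangles for the E2F-like site. CHR matches of genes that fell gather near the start site, most of them behind CCAAT boxes, and the first listed promoters of MAD1L1, CENPP and DSN1 have no match.

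Deposition of CENP-A was represented by the histone itself and by 2 factors that bring it to the centromere. CENPA, the centromeric H3 variant, measured 25.3, 27.7 and 21.9 FPKM in the control libraries and 16.2, 16.2 and 19.2 FPKM with Agrimol B. It fell 1.45-fold (-0.51 ± 0.11 SE; limma adjusted p = 0.00867). An exon of SLC35F6, on the same strand, overlaps CENPA in the annotation. SLC35F6 measured 11.2, 10.9 and 9.68 FPKM in controls and 24.1, 6.90 and 24.1 FPKM with Agrimol B and did not pass. HJURP, the chaperone that escorts CENP-A (chromosome 2, 233833416 to 233854566, minus strand), measured 29.5, 15.9 and 16.5 FPKM in controls and 8.79, 8.77 and 10.3 FPKM with Agrimol B. The first control library stood 1.86-fold above the lowest one, yet all 3 Agrimol B values lay under every control value. HJURP fell 2.22-fold (-1.02 ± 0.23 SE; limma adjusted p = 0.0125), and without control replicate 1 the difference was -0.74 (adjusted p = 0.00267). OIP5, the MIS18 complex subunit that licenses loading, fell 1.23-fold, from 21.8 ± 1.20 to 17.7 ± 0.689 FPKM (SD, n = 3).

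Of the 13 CCAN genes, CENPI, CENPQ and CENPN fell and CENPP rose. CENPI, part of the CENP-H/I/K group that helps recruit the outer kinetochore (chromosome X, 101098218 to 101163681, plus strand), had, with HJURP, 1 of the 2 deepest falls of the set. It measured 11.7, 11.3 and 11.0 FPKM in controls and 4.55, 5.22 and 5.18 FPKM with Agrimol B, 2.27-fold lower (-1.04 ± 0.063 SE; limma adjusted p = 8.70e-05). Its partners in the same group did not pass. CENPH measured 18.8, 16.7 and 15.4 FPKM in controls and 18.8, 15.3 and 16.7 FPKM with Agrimol B. CENPK measured 17.9, 23.2 and 20.3 and 24.6, 19.2 and 20.6 FPKM in the same order. The groups overlapped in both genes, with 95% intervals of the difference of -0.25 to 0.24 for CENPH and -0.24 to 0.37 for CENPK. The CENPI to CENPH ratio within a library went from 0.670 ± 0.0479 to 0.298 ± 0.0507 (SD, n = 3).

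CENPQ, of the CENP-O/P/Q/U group that helps keep PLK1 at kinetochores, fell 1.20-fold, from 32.9 ± 0.734 to 27.4 ± 0.744 FPKM (SD, n = 3). CENPP, of the same group, was the lowest-expressed member of the set and rose 1.33-fold. It measured 2.45, 2.36 and 2.41 FPKM in controls and 3.23, 3.24 and 3.16 FPKM with Agrimol B (0.30 ± 0.051 SE; limma adjusted p = 0.00369). Exons of NOL8 and IPPK overlap CENPP on the other strand, and both of those genes were also higher with Agrimol B, 1.33-fold and 1.38-fold. Whether the authors' FPKM values used strand is not stated in the labels, so reads of these genes and of CENPP may not be told apart. CENPU measured 28.7, 27.8 and 31.1 FPKM in controls and 26.2, 28.1 and 24.8 FPKM with Agrimol B and did not pass (limma adjusted p = 0.111). CENPO was scattered in both groups, with 13.0, 27.0 and 22.9 FPKM in controls and 16.3, 11.3 and 26.1 FPKM with Agrimol B, a spread of over 2-fold within each group. No difference could be read from CENPO at that spread (95% interval -1.13 to 0.66).

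CENPN, which binds CENP-A nucleosomes directly, fell 1.22-fold, from 36.6 ± 3.43 to 30.0 ± 2.12 FPKM (SD, n = 3; limma adjusted p = 0.0334). That call was lost when any of 4 libraries was left out (control 1 or 2, Agrimol B 2 or 3; adjusted p from 0.0706 to 0.0951). CENPL, its binding partner, did not pass, at 15.7, 16.3 and 15.2 FPKM in controls and 18.7, 18.1 and 15.7 FPKM with Agrimol B. CENPM had 2 Agrimol B libraries at a clearly lower level and 1 just under the controls. Its values were 21.5, 21.1 and 22.8 FPKM in controls and 21.0, 12.7 and 13.1 FPKM with Agrimol B. It missed the threshold (limma adjusted p = 0.0671). Without Agrimol B replicate 1 the difference was -0.71 (limma adjusted p = 0.000981). With any other library left out CENPM did not pass (limma adjusted p from 0.121 to 0.176). Since replicate 1 was singled out by its value, no fall is read from its removal. CENPC, the scaffold that links CENP-A chromatin to the outer layer, measured 6.92, 6.95 and 6.05 FPKM in controls and 6.48, 3.99 and 5.24 FPKM with Agrimol B. The first Agrimol B library again lay highest, inside the control range, and the gene did not pass. CENPT and CENPW belong to the histone-fold arm of the network. CENPT measured 13.9, 14.2 and 11.7 FPKM in controls and 12.2, 13.1 and 11.3 FPKM with Agrimol B. CENPW measured 33.7, 44.7 and 35.0 and 33.3, 34.5 and 30.6 FPKM in the same order, and the groups overlapped in both genes. With either other scaling of the libraries, and without Agrimol B replicate 1, 5 CCAN genes fell in place of 3.

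The KNL1-MIS12-NDC80 network forms the outer kinetochore, and its parts went different ways. KNL1, not 1 of the 42 genes, was named after its values were seen. It fell 1.13-fold (limma adjusted p = 0.0493), a call lost under 8 of the 13 alternative settings. All 4 subunits of the NDC80 complex, the main coupler to microtubules, fell. NDC80 measured 65.2, 65.8 and 68.3 FPKM in controls and 45.9, 43.2 and 42.6 FPKM with Agrimol B, 1.51-fold lower (-0.59 ± 0.045 SE; limma adjusted p = 0.000181). Its dimer partner NUF2 fell 1.43-fold, from 24.4 ± 1.70 to 17.1 ± 1.26 FPKM (SD, n = 3), and NDC80 stood at 2.73 and 2.58 times NUF2 in the group means. SPC25, at the end of the complex that faces the centromere, measured 19.4, 19.7 and 19.7 FPKM in controls and 10.7, 11.4 and 10.4 FPKM with Agrimol B. SPC24, its partner, measured 22.9, 21.7 and 27.0 and 16.0, 13.6 and 10.7 FPKM. SPC25 fell 1.80-fold and SPC24 1.78-fold (-0.80 ± 0.049 SE and limma adjusted p = 9.29e-05 for SPC25, -0.80 ± 0.15 SE and 0.00579 for SPC24), and in neither did the groups overlap.

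DSN1, MIS12 and NSL1 belong to the MIS12 complex, which bridges the CCAN and NDC80, and none of these 3 fell. PMF1, the remaining subunit and not 1 of the 42 genes, was named after its values were seen. It measured 27.6, 25.6 and 39.3 FPKM in controls and 28.0, 22.0 and 24.4 FPKM with Agrimol B, and it did not pass (limma adjusted p = 0.212). DSN1 (chromosome 20, 36751791 to 36773818, minus strand) measured 24.5, 24.6 and 22.6 FPKM in controls and 30.2, 29.7 and 29.3 FPKM with Agrimol B. It rose 1.25-fold (0.31 ± 0.049 SE; limma adjusted p = 0.00292), with every Agrimol B library above every control library. MIS12 measured 11.0, 9.07 and 11.5 FPKM in controls and 29.5, 9.69 and 29.5 FPKM with Agrimol B. Agrimol B libraries 1 and 3 stood far above the controls and library 2 stood among them, and the gene did not pass (limma adjusted p = 0.115). Without Agrimol B replicate 2 its difference was 1.41 (adjusted p = 0.000856). DERL2 has an exon that overlaps MIS12 on the other strand, and it also had Agrimol B library 2 lowest of the treated libraries, at 17.6, 13.6 and 14.3 FPKM in controls and 25.6, 15.3 and 25.9 FPKM with Agrimol B. Its part in the MIS12 values was not tested. NSL1 did not pass, at 4.19, 4.46 and 4.50 FPKM in controls and 5.14, 3.38 and 4.50 FPKM with Agrimol B. ZWINT, which binds KNL1 and links it to the corona, fell 1.35-fold, from 40.2 ± 1.18 to 29.9 ± 2.46 FPKM (SD, n = 3).

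**Figure D3:**
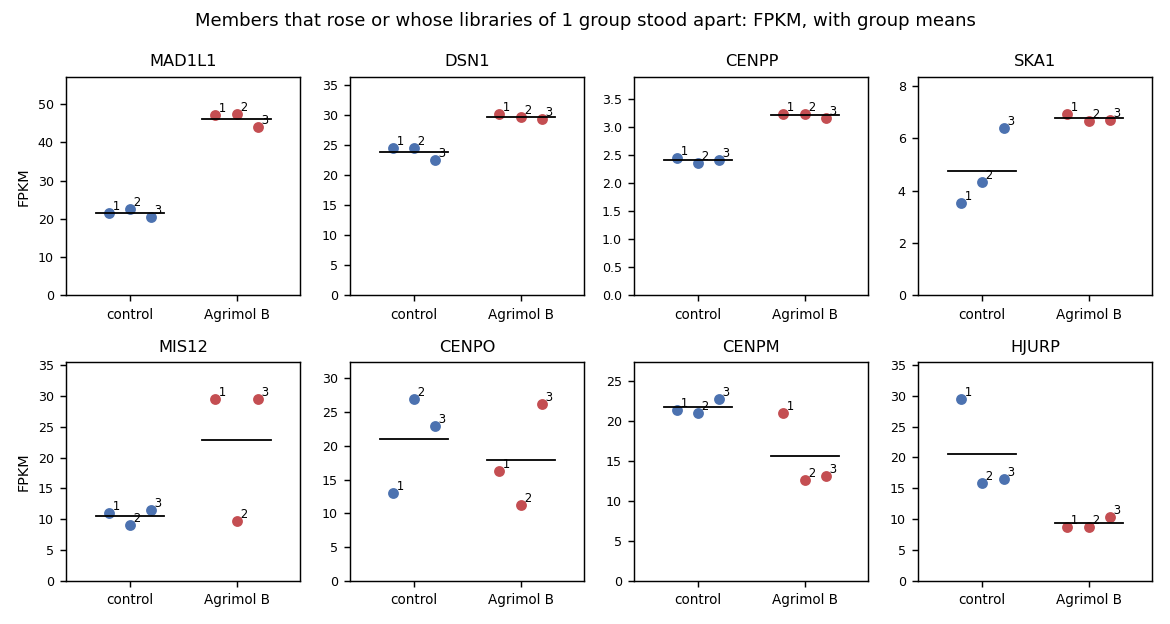
FPKM in each library, numbered by replicate, with lines for group means, for the 3 genes that rose and for 5 others in which libraries of a group lay far apart. MAD1L1, DSN1 and CENPP have tight, separate groups. MIS12 has Agrimol B library 2 at 9.69 FPKM, among the controls (9.07 to 11.5 FPKM), beside 29.5 FPKM in Agrimol B libraries 1 and 3. HJURP has control library 1 at 29.5 FPKM.

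Libraries of a group lay more than 1.5-fold apart in 8 of the 42 genes, a share near the 16.9% of tested genes. These were HJURP, CENPC, CENPM, CENPO, MIS12, NSL1, SKA1 and AURKB. Where treated libraries lay that far apart, Agrimol B 2 was the lowest in CENPC, CENPM, CENPO, MIS12 and NSL1 and the highest in AURKB. No single library stood alone against 2 close partners throughout: HJURP had control 1 apart, CENPM had Agrimol B 1 and MIS12 had Agrimol B 2. Each library stood alone in this way (over 1.5-fold from its 2 partners, which lay within 1.1-fold of each other) for 129 to 156 tested genes, 1.06% to 1.28% of them. Exons of other genes overlap 2 of the 42 genes on the same strand and 13 on the opposite strand in GENCODE release 29. The latter are HJURP, OIP5, CENPL, CENPN, CENPO, CENPP, CENPT, CENPU, NUF2, SPC24, MIS12, ZWILCH and MAD2L1, whose values may include reads of a partner if strand was not used.

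The SKA complex, which tracks microtubule ends, had 2 genes that fell and 1 that did not pass. SKA2 fell 1.42-fold, from 36.7 ± 2.15 to 25.9 ± 0.736 FPKM, and SKA3 fell 1.40-fold, from 24.7 ± 0.444 to 17.6 ± 0.747 FPKM (SD, n = 3). SKA1 had its higher values under treatment, with 3.51, 4.33 and 6.40 FPKM in controls and 6.94, 6.66 and 6.70 FPKM with Agrimol B. Its groups did not overlap, but the control libraries were spread 1.82-fold and it missed the threshold (limma adjusted p = 0.0680). With control replicate 3, the highest control, left out, the SKA1 difference was 0.66 (limma adjusted p = 0.00411). With any other library left out SKA1 did not pass (limma adjusted p from 0.130 to 0.159). Since replicate 3 was singled out by its value, no rise is read from its removal.

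Of the RZZ complex, the platform of the fibrous corona, ZWILCH was the only subunit that fell. ZWILCH measured 19.8, 23.9 and 29.5 FPKM in controls and 19.6, 14.6 and 14.5 FPKM with Agrimol B, 1.51-fold lower (-0.56 ± 0.17 SE; limma adjusted p = 0.0364). The lowest control library lay just above the highest Agrimol B library, and the call was lost without control 2 or 3 or without Agrimol B 2 or 3 (adjusted p from 0.0822 to 0.105), so no RZZ gene fell under those settings. Exons of RPL4, a ribosomal protein gene at 947 FPKM in controls, overlap ZWILCH on the other strand, and RPL4 did not pass. KNTC1, the ROD subunit, measured 19.5, 22.1 and 18.3 FPKM in controls and 17.9, 20.5 and 18.2 FPKM with Agrimol B. ZW10 measured 18.3, 19.0 and 17.6 and 18.7, 17.4 and 17.5 FPKM. Their groups overlapped, and the 95% intervals were -0.28 to 0.14 for KNTC1 and -0.16 to 0.093 for ZW10.

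CENPE and CENPF, which join the corona in mitosis, both fell. CENPE, the kinesin that carries chromosomes toward the spindle equator, measured 18.2, 18.0 and 19.3 FPKM in controls and 11.1, 11.4 and 10.4 FPKM with Agrimol B, 1.69-fold lower (-0.71 ± 0.054 SE; limma adjusted p = 0.000183). CENPF, a large coiled-coil protein that binds dynein regulators, measured 62.8, 64.7 and 64.1 FPKM in controls and 40.2, 40.5 and 39.6 FPKM with Agrimol B. It was 1.59-fold lower (-0.66 ± 0.035 SE; limma adjusted p = 6.25e-05), with libraries at most 1.03-fold apart in controls and 1.02-fold apart with Agrimol B. The CENPE to CENPF ratio was 0.290 ± 0.0114 in controls and 0.273 ± 0.00915 with Agrimol B (SD, n = 3), so their levels kept nearly the same proportion.

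The 6 spindle checkpoint genes held both the steepest rise of the set and some of its deepest falls. TTK, the MPS1 kinase that starts the checkpoint signal (chromosome 6, 80003887 to 80042527, plus strand), measured 21.7, 23.1 and 24.0 FPKM in controls and 11.7, 11.5 and 11.8 FPKM with Agrimol B. It fell 1.97-fold (-0.92 ± 0.051 SE; limma adjusted p = 6.77e-05), and its treated libraries were nearly identical. BUB1, the kinase that marks the centromere and recruits checkpoint proteins, measured 46.9, 48.9 and 50.7 FPKM in controls and 30.0, 30.5 and 29.3 FPKM with Agrimol B. BUB1B, which encodes BUBR1 of the inhibitory complex, measured 49.0, 52.2 and 55.0 and 27.9, 32.2 and 35.8 FPKM. Both were 1.63-fold lower (-0.69 ± 0.044 SE and limma adjusted p = 0.000104 for BUB1, -0.69 ± 0.10 SE and 0.00174 for BUB1B), and the ratio of BUB1 to BUB1B was 0.939 and 0.946 in the group means. The readthrough gene BUB1B-PAK6, on the same strand, was at most 0.146 FPKM in any library.

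BUB3, the partner of both kinases, was the most abundant transcript of the set and did not pass. It measured 103, 99.2 and 92.3 FPKM in controls and 92.8, 91.0 and 84.7 FPKM with Agrimol B (95% interval -0.27 to 0.010; limma adjusted p = 0.104). MAD2L1, which encodes the MAD2 protein that changes shape to inhibit CDC20, fell 1.32-fold, from 22.2 ± 0.606 to 16.8 ± 0.294 FPKM (SD, n = 3). MAD1L1, whose product anchors MAD2 at unattached kinetochores (chromosome 7, 1815793 to 2233243, minus strand), went the other way. It measured 21.5, 22.7 and 20.5 FPKM in controls and 47.1, 47.5 and 44.0 FPKM with Agrimol B, and the lowest treated library stood far above the highest control library. MAD1L1 rose 2.15-fold (1.07 ± 0.055 SE; limma adjusted p = 5.37e-05), and it rose under all 13 alternative settings. No exon of another gene overlaps it in the annotation.

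**Figure D4:**
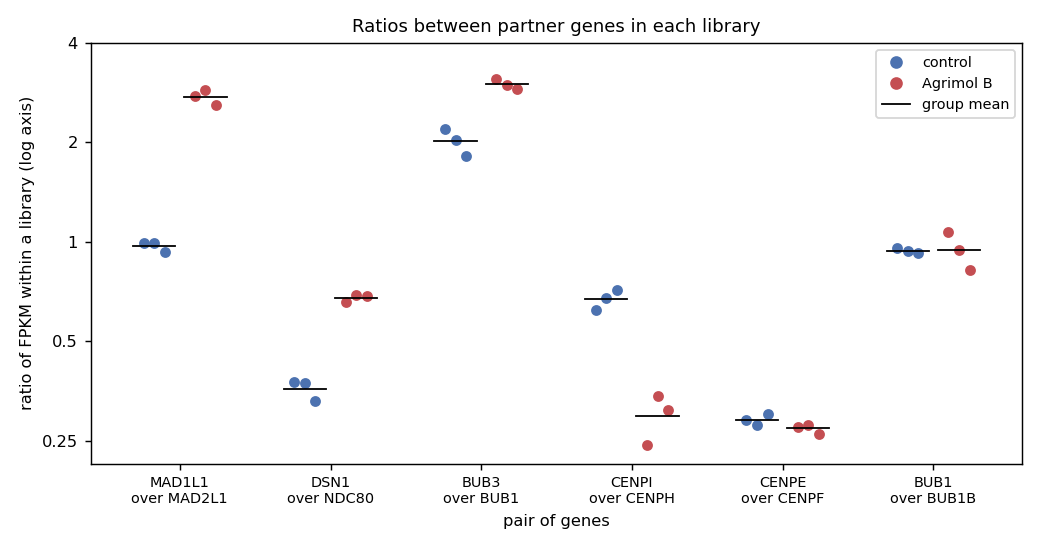
Ratio of FPKM of a pair of genes within each library on a log axis, blue for control and red for Agrimol B, with lines for group means. MAD1L1 over MAD2L1 went from 0.970 to 2.75 and DSN1 over NDC80 from 0.360 to 0.678, CENPI over CENPH dropped, and CENPE over CENPF and BUB1 over BUB1B stayed close.

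The proportion between partner transcripts differed between the groups in some pairs, which were chosen after their values were seen. MAD1L1 and MAD2L1 were near equal in controls, with ratios of 0.991, 0.992 and 0.928, and stood at 2.77, 2.88 and 2.59 with Agrimol B. DSN1 to NDC80 went from 0.375, 0.373 and 0.331 to 0.659, 0.688 and 0.687. BUB3 to BUB1 went from 2.01 ± 0.185 to 2.99 ± 0.104 (SD, n = 3). In each of these pairs the libraries of the 2 groups did not overlap. For MAD1L1 to MAD2L1 and DSN1 to NDC80 no overlap was possible. Their first gene was higher and their second lower in every treated library, so these ratios restate the differences given above. The ratios are given as a description without a test.

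Of the chromosomal passenger complex, 3 of 4 genes fell. INCENP, the scaffold that activates the kinase, measured 27.5, 26.0 and 22.7 FPKM in controls and 16.2, 15.2 and 15.5 FPKM with Agrimol B, 1.62-fold lower (-0.66 ± 0.077 SE; limma adjusted p = 0.000854). CDCA8, the borealin subunit that targets the complex to chromatin, measured 35.1, 35.1 and 36.1 FPKM in controls and 23.3, 23.6 and 25.0 FPKM with Agrimol B, 1.48-fold lower (-0.55 ± 0.043 SE; limma adjusted p = 0.000216). AURKB, the Aurora B kinase of the complex, went from 87.7 ± 4.63 to 63.6 ± 14.5 FPKM (SD, n = 3), 1.38-fold lower (limma adjusted p = 0.0397). Its Agrimol B libraries were 52.5, 79.9 and 58.2 FPKM, with library 2 close to the lowest control at 84.2 FPKM. Without that library the AURKB difference was -0.65 (adjusted p = 0.00217), and with any of the other 5 libraries left out the call was lost (adjusted p from 0.0753 to 0.111). BIRC5, the survivin subunit, measured 18.3, 21.0 and 19.6 FPKM in controls and 19.2, 14.4 and 17.2 FPKM with Agrimol B. The groups overlapped and BIRC5 did not pass (95% interval -0.47 to 0.061).

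**Figure D5:**
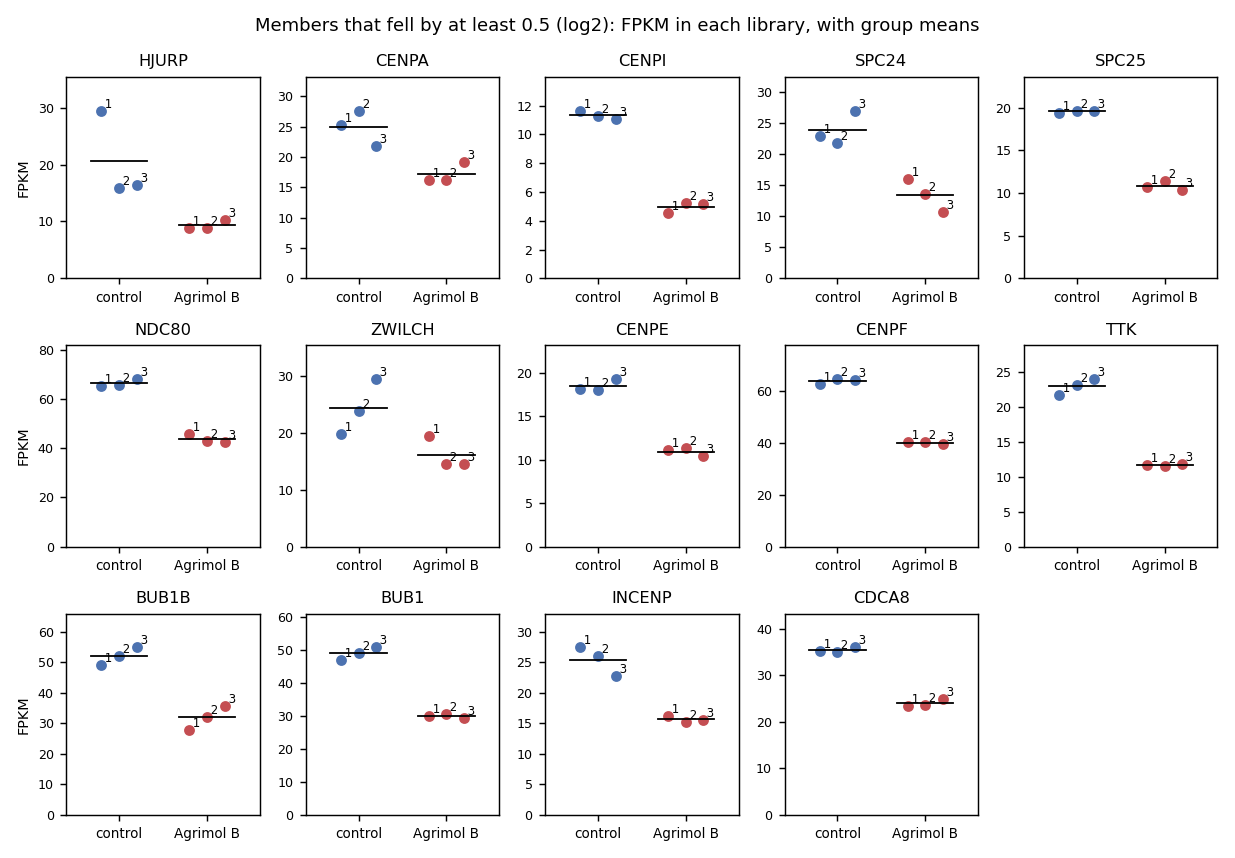
FPKM in each library, numbered by replicate, with lines for group means, for the 14 genes that fell by at least 0.5 (log2). In every panel the 3 Agrimol B points lie under the 3 control points. CENPF, CDCA8 and NDC80 are among the panels with close libraries, and HJURP, ZWILCH and SPC24 have wider groups.

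Of 20 further kinetochore and checkpoint genes listed by function, 10 fell, 2 rose and 8 did not pass (median -0.20). With any library left out, 7 or 8 fell, and KNL1, SPDL1 and SGO1 lost their calls under 8, 7 and 4 of the 13 alternative settings. The largest changes were in CENPX, of the CENP-T arm, which fell 1.75-fold, in CDC20, the checkpoint's target, which fell 1.61-fold, and in SGO2, a protector of centromeric cohesion, which fell 1.62-fold. BOD1, a regulator of kinetochore phosphatase activity, rose from 39.6, 53.3 and 40.4 FPKM to 64.1, 63.1 and 68.6 FPKM. TRIP13, the ATPase that takes checkpoint complexes apart, fell 1.31-fold, and CLASP2, a microtubule plus-end protein, rose 1.31-fold. All 12 mitotic kinesins listed beside them fell (median -0.69), and of 20 replication licensing genes 13 fell, 2 rose and 5 did not pass (median -0.39). The proliferation markers MKI67, TOP2A, PCNA and CCNB1 fell 1.94-fold, 1.63-fold, 1.59-fold and 2.14-fold, so the lower kinetochore transcripts went with lower levels of general markers of cycling cells. Their part in the result was not tested.

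The 6 libraries were alike in total and depth. Their summed FPKM lay between 352990 and 359537 and the depth relative to control 1, read from the steps of very low values, between 0.988 and 1.18, with the total number of reads unknown. Correlations of log2(FPKM + 1) across genes were 0.986 to 0.988 within groups and 0.947 to 0.950 between groups. Of 7 tested mesenchymal and osteoblast markers, 5 fell (VIM, COL1A1, COL1A2, SPARC and ALPL, from 1.30-fold to 2.73-fold), SPP1 rose 2.18-fold and RUNX2 did not pass (median -0.51). VIM was at 704 and COL1A1 at 419 FPKM in controls, and the osteoblast gene BGLAP was at most 0.221 FPKM. Markers of other cell types summed to 18.5 to 19.2 FPKM in controls and 20.6 to 35.6 FPKM with Agrimol B, of which EPCAM gave 13.0 to 14.7 FPKM. Of the 3 of them that could be tested, 1 rose, CD68, from 4.02 to 4.59 FPKM in controls to 7.49 to 10.3 FPKM. KRT5 was at 10.4 FPKM in Agrimol B library 3 and under 1 FPKM elsewhere, and PTPRC, which defines leukocytes, was listed at 0 in all control libraries. Their part in the results was not tested.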

How the data were processed

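RNA of 6 HOS libraries, 3 treated with Agrimol B for 24 h and 3 controls, was extracted with Trizol, and the kit used for the libraries keeps strand and selects mRNA, per the labels. The authors deposited 1 table of FPKM values by gene symbol. Per the submitters' processing notes, HISAT, Trimmomatic, cutadapt and FastQC were used, with build hg38. Which program computed FPKM, whether it used strand, its gene models and its filters: not given in the sources used here. Control columns are named NC and the samples' descriptions read CN, so these were paired by their shared number; 0 columns were left without a sample.

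After a pseudocount of 1 and a log2 transform, genes whose mean reached 1 FPKM entered a limma model (limma 3.58.1 under R 4.3.3; group term, empirical Bayes with a variance trend, two-sided, Benjamini-Hochberg over 12143 genes, threshold 0.05), which gave 2598 genes lower and 3713 higher with Agrimol B. Tested on simulated data of the same size, with 100 genes changed 2-fold and 100 changed 1.5-fold, the steps recovered 93% and 67% of them. Of 169 genes called there, 9 were false. The changes were added to log2(FPKM + 1) of genes with a mean over 2 on that scale, so genes as low as CENPP were not covered. Far fewer genes changed there than were called in the real data. Python 3.11.15 with pandas 2.3.3 was used for other steps. The genes, lists and tests were chosen with earlier results of these data known. Library values are given for genes that changed by at least 0.5 (log2), that rose or that did not pass, and other genes by mean and fold. Gene positions come from GENCODE release 29 (GRCh38) and promoters from RefSeq (GRCh38.p14). Total reads are unknown, so no counting error is given. The alternatives were another pseudocount (0.1), no filter, a filter of 5 FPKM, median-ratio and quantile scaling, no variance trend, a replicate block and each library left out in turn. The values of 1 further gene are not reported here.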

Additional observations from a re-analysis of the deposited data

How the results depend on the processing

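Of the 26 genes called, 23 kept their call under every one of the 13 alternatives that could be run on them (CENPP and NSL1 fall under the filter of 5 FPKM), and 3 lost it under at least 1 (CENPN, ZWILCH and AURKB). Of the 16 genes that did not pass, 7 gained a call under at least 1 (CENPC, CENPL, CENPM, CENPU, MIS12, SKA1 and BUB3). The number that fell was 26 with median-ratio scaling, 25 with quantile normalization and 20 to 24 with a library left out. Over all genes, median-ratio scaling gave 3148 lower and 3089 higher, and quantile normalization 3084 lower and 3103 higher. The median over the 42 genes was -0.3992 with a filter of 5 FPKM (without CENPP and NSL1), -0.4048 with median-ratio scaling, -0.4226 with quantile normalization and between -0.4177 and -0.3181 with a library left out. Same-numbered libraries did not deviate together (correlations of 0.0373, -0.0058 and -0.0146). With the replicate block, 21 of the genes and 8 of the 20 further ones fell, and 2384 genes were lower and 3392 higher over the table. ZWILCH (limma adjusted p = 0.0877) and AURKB (0.0586) lost their calls under it, as they also did with some libraries left out. The labels do not say whether same-numbered libraries shared a batch or culture. Among genes that did not pass, the sign of the difference turned for CENPK with quantile normalization (-0.0068). With a library left out it also turned, and the differences ranged from -0.0798 to 0.0656 for CENPH, from -0.0314 to 0.1589 for CENPK, from -0.5332 to 0.0395 for CENPO, from -0.1315 to 0.1121 for NSL1 and from -0.8916 to 0.3385 for CENPBD1. The cause was not tested. Total depth is unknown, which limits what can be said of CENPP and other low genes.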
